A study of Mus musculus with 12 samples.

Results

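Host genes of small nucleolar RNAs (snoRNAs) were followed through brain and liver of mice with and without Vaultrc5, which encodes one of the short RNAs related to vault particles. The genes were chosen by symbol and are Gas5, Snhg1, Snhg3, Snhg5, Snhg6, Snhg8, Snhg11, Snhg12, Snhg14 and Snhg20, which makes 10 of the 55450 genes in the count table. All 10 were found in the table and passed the filter on low counts in every comparison.

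The series holds 12 libraries of ribosomal-RNA-depleted total RNA in 4 groups of 3. These are brain of wild-type males, brain of Vaultrc5-/- males, liver of wild-type males and liver of Vaultrc5-/- males, all aged 7 to 9 weeks. The labels give the controls as wild-type and the protocol as Vaultrc5+/+, while their titles carry the abbreviation flx, and how the allele was made is not given in the sources used here. Nothing in the labels ties a library to one animal, so p-values measure the spread between libraries, and in whole tissue fewer cells of a type and less RNA per cell cannot be told apart.

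A snoRNA guides chemical modification or cleavage of other RNAs, and in mammals it is usually cut out of an intron of a longer host transcript. Box C/D snoRNAs guide methylation of ribose, and box H/ACA snoRNAs guide the change of uridine to pseudouridine. Many hosts, Gas5 among them, code for no known protein: their spliced transcript is removed by nonsense-mediated decay, and many begin with a terminal oligopyrimidine tract, the start motif of ribosomal protein genes. Snhg14 is a host of another kind, a very long transcript of the imprinted Prader-Willi and Angelman region that carries repeated Snord115 and Snord116 genes and runs against Ube3a in neurons.

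The promoters of 9 of the 10 genes are in the RefSeq promoter table used (build GRCm38.p6), with Snhg6 not among them. The windows shown run over 45 bases before the annotated start and the first 25 bases from it, because they hold the motifs that differ among the hosts. Capitals mark a pyrimidine tract (C and at least 4 further C or T) that begins within 5 bases of the start, and a TATA between 40 and 20 bases before the start, together with a following TA where there is one. Gas5 lies on the plus strand (chr1:161035121-161035190), as does Snhg12 (chr4:132308633-132308702), and Snhg8 (chr3:123508312-123508381) and Snhg14 (chr7:60450153-60450222) lie on the minus strand. Gas5 has another RefSeq start without a tract there, and the RefSeq start of Snhg14 lies upstream of the GENCODE gene whose counts were used.
Gas5: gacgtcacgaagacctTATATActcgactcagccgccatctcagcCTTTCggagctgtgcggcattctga
Snhg8: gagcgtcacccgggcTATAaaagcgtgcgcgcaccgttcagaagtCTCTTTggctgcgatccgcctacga
Snhg12: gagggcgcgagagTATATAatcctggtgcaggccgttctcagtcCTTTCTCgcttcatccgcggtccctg
Snhg14: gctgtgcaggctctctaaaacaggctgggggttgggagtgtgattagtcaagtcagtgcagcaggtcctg

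A tract at the start itself was found in 2 of the 9 genes, Gas5 and Snhg8, against 3.01% of 27025 reference genes. With a tolerance of 5 bases it was found in 4 of 9, Snhg3 and Snhg12 being the others, against 21.2% of reference genes. The tract was searched on the transcribed strand only. TATA, which reads the same on both strands, was searched after the sequences had been seen and was found in 5 of 9 (Gas5, Snhg1, Snhg5, Snhg8 and Snhg12), against 6.54% of reference genes. Snhg11, Snhg14 and Snhg20 had neither motif at these positions. A match describes these letters and is no measurement of the promoter's use.

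The small RNAs inside Snhg3 and Snhg14 are shown because the count of a host depends on how reads are shared with such genes. Snora73b (chr4:132352322-132352526) and Snora73a (chr4:132352775-132352979), 205 bases each and on the minus strand with Snhg3, are H/ACA snoRNAs, and capitals mark the ACA near their end. Snord116l4 (chr7:59889593-59889686) is 1 of 30 annotated genes in Snhg14 with the same 94 bases, and Gm26434 (chr7:59615744-59615822) is 1 of 33 with the same 79 bases. In both of these, capitals mark the TGATGA and CTGA that form boxes C and D. Sequences are from the GENCODE M21 transcripts (GRCm38).
Snora73b: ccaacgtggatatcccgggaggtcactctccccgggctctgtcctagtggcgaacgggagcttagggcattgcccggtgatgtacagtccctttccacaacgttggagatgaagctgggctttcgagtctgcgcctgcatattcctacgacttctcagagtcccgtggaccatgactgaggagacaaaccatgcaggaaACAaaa
Snora73a: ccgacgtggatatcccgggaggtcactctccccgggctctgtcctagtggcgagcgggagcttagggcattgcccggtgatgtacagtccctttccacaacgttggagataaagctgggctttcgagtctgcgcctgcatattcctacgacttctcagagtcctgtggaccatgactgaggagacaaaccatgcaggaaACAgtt
Snord116l4: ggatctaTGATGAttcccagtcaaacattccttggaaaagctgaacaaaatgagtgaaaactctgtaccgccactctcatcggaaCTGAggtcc
Gm26434: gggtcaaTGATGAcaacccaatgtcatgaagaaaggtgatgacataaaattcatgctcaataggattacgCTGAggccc

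Brain libraries held 14844937 to 18567362 counts each, and liver libraries 23247425 to 27155478. Vaultrc5 had 4, 1 and 4 counts in wild-type brain and 33, 39 and 48 in wild-type liver, and 0 in all 6 knockout libraries, as the labels have it. The summed level of 6 hepatocyte markers was 64844 to 95046 CPM (counts per library scaled by its effective size) in liver and 0.256 to 1.24 CPM in brain, and 7 neuron markers summed to 3803 to 5120 CPM in brain and 28.4 to 36.8 CPM in liver. Within brain, 5 oligodendrocyte markers ranged from 1491 to 5125 CPM in wild-type and from 1670 to 2770.2 CPM in knockout libraries, and 5 choroid plexus markers from 3.52 to 347 CPM and from 6.91 to 487 CPM. Normalization factors of brain libraries lay between 1.31 and 1.38 and those of liver between 0.709 and 0.770, so every comparison of the tissues rests on how libraries are scaled.

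The hosts differed by orders of magnitude in brain, where Snhg11 and Snhg14 stood far above the rest. In wild-type liver, once levels were divided by exon length, Snhg14 came last. Snhg11 lay among the lowest there, with a range that overlapped that of Snhg20. Levels between genes are given as CPM per kilobase of merged exon. Snhg11 (chr2:158375638-158386145) stood at 158 ± 9.92 CPM per kilobase in wild-type brain (SD, n = 3). Snhg14 (chr7:59307924-59975759), whose span of 667836 bases holds 26093 bases of annotated exon, followed at 18.2 ± 1.96. Gas5 (chr1:161034422-161038539) came next at 8.52 ± 0.212. The ranges of these 3 genes did not overlap each other or those of the genes under them.

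The other hosts in wild-type brain lay between 1.98 and 3.27 CPM per kilobase on average. Snhg8 (3.27 ± 0.399), Snhg6 (3.05 ± 0.265) and Snhg3 (2.99 ± 0.123) had overlapping ranges. So did Snhg12 (2.60 ± 0.118), Snhg20 (2.49 ± 0.433), Snhg5 (2.03 ± 0.402) and Snhg1 (1.98 ± 0.261), neighbour by neighbour. Only the step from Snhg3 to Snhg12 separated neighbours among these 7, and in knockout brain their ranges overlapped as well.

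In wild-type liver Gas5 led with 10.7 ± 0.237 CPM per kilobase, followed by Snhg8 with 7.51 ± 0.257, and neither range overlapped that of its neighbour. From Snhg6 (4.25 ± 0.789) through Snhg3, Snhg1, Snhg12, Snhg5 and Snhg20 to Snhg11 (1.64 ± 0.716) each range overlapped the next. Snhg14 was last at 0.0976 ± 0.00670, with a range apart from all others. In knockout liver Gas5 was first again (9.79 ± 1.27) and Snhg14 last (0.156 ± 0.0191), while Snhg3 (5.12 ± 1.44) and Snhg8 (5.11 ± 0.635) came next with overlapping ranges.

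**Figure D1:**
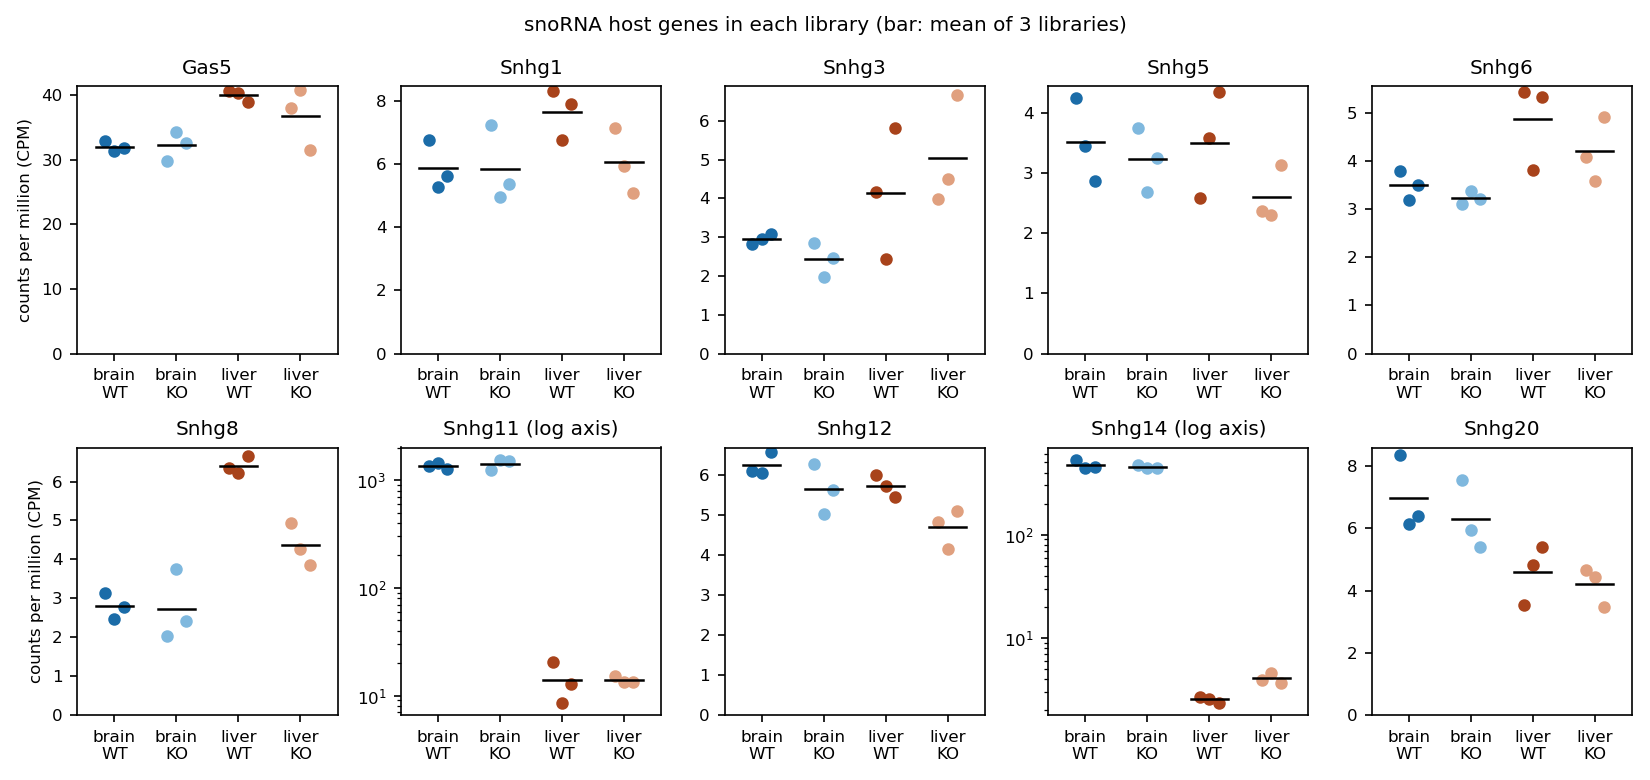
Level of each host gene in CPM (vertical axis, logarithmic for Snhg11 and Snhg14) in each library of the 4 groups, with a bar at the mean of 3 libraries. Snhg11 and Snhg14 lie far higher in brain than in liver, Snhg8 lies higher in wild-type liver than in the other groups, and most other hosts stay within a narrow range.

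Snhg11 and Snhg14 had tissue differences far beyond the spread between libraries. Snhg11 counts were 30448, 35095 and 29732 in wild-type brain and 366, 172 and 243 in wild-type liver. Every brain library held many times the count of the highest liver library, although the liver libraries were deeper. The level was 1350.4 ± 84.6 CPM in brain and 13.9 ± 6.10 CPM in liver, a log2 difference of 6.60 ± 0.36 (SE; adjusted p = 1.53e-06, edgeR quasi-likelihood F-test with Benjamini-Hochberg adjustment over all genes tested). In the knockout libraries, which are a separate set, Snhg11 differed by 6.65 ± 0.18 (edgeR adjusted p = 1.33e-07).

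Snhg14 counts were 12050, 10695 and 10594 in wild-type brain and 48, 52 and 45 in wild-type liver. Its log2 difference, 7.54 ± 0.16, was the largest among the 10 hosts (edgeR adjusted p = 6.62e-08), a ratio of 187. Knockout brain libraries held 9564, 10076 and 9715 counts, and knockout liver libraries 75, 82 and 65. The log2 difference there was 6.79 ± 0.15 (edgeR adjusted p = 1.14e-07), a ratio of 110. Neither call was lost under any alternative tried, and both genes stayed higher in brain with library totals in place of effective library sizes, where the wild-type differences were 7.44 for Snhg11 and 8.38 for Snhg14.

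Of the 10 hosts, 5 were called between wild-type brain and liver, against 78.6% of all genes tested, so a call by itself sets none of them apart. Higher in brain were 3 hosts (43.9% of all genes) and higher in liver 2 (34.7%). At an unadjusted p under 0.05 there were the same number, 5, beside 79.8% of all genes. Groups did not overlap for 4 hosts higher in brain (45.8% of all genes) and 4 higher in liver (36.6%). Besides Snhg11 and Snhg14, the one called higher in brain was Snhg20 (chr11:117076008-117078955), at 8.35, 6.14 and 6.40 CPM in brain and 3.54, 4.82 and 5.39 in liver. Its groups did not overlap, by a small margin, and the log2 difference was 0.61 ± 0.22 (edgeR adjusted p = 0.0372). The call did not outlast several alternatives: it was lost in 5 of the 6 fits without 1 library and with the replicate number as a block (adjusted p = 0.0657).

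Higher in liver were Gas5 and Snhg8. Gas5, the growth-arrest-specific host of several box C/D snoRNAs, stood at 32.9, 31.4 and 31.9 CPM in wild-type brain and at 40.7, 40.4 and 39.0 CPM in wild-type liver. The groups did not overlap and differed by -0.32 ± 0.09 (edgeR adjusted p = 0.0125). Snhg8 (chr3:123507552-123508404), which holds the H/ACA snoRNA Snora24, stood at 3.14, 2.46 and 2.77 CPM in brain and at 6.35, 6.22 and 6.64 CPM in liver. It differed by -1.19 ± 0.19 (edgeR adjusted p = 0.000548). Scaled by library totals, the Gas5 difference turned to 0.52 (edgeR adjusted p = 0.00116), and that of Snhg8 shrank to -0.35 (edgeR adjusted p = 0.128).

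The scaling moved all genes together: the median of all genes tested was 0.21 with effective library sizes and 1.05 with library totals. Such a shift leaves the distance of a gene from that median nearly unchanged by construction, so the distance is no test of the scaling. Gas5 lay 0.53 below the median of all genes and Snhg8 1.40 below it, on the log2 scale, with either scaling. Snhg20 lay 0.40 above it with either. Ratios within a library do not depend on scaling at all, and were computed after the levels had been seen. Snhg8 was 8.69 ± 0.850% of the Gas5 count in wild-type brain and 16.0 ± 0.882% in wild-type liver. Snhg20 was 21.7 ± 3.23% of Gas5 in brain and 11.5 ± 2.55% in liver. In wild type the ranges of the tissues did not overlap for either gene, whereas Snhg1 at 18.4 ± 1.95% and 19.2 ± 2.09% of Gas5 overlapped. In knockout the Snhg8 ratio overlapped between brain (6.80 to 10.9%) and liver (10.5 to 13.1%), and the Snhg20 ratio did not (16.6 to 25.4% and 10.8 to 12.4%).

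The remaining 5 hosts were not called in wild type. Snhg1 (chr19:8723475-8726443), a host of box C/D snoRNAs, differed by -0.37 (95% interval -0.78 to 0.04). Snhg6 (chr1:9941959-9944118), the host of Snord87, differed by -0.47 (-0.98 to 0.03) and Snhg3 (chr4:132348014-132353686) by -0.48 (-1.23 to 0.27). Snhg6 was called in the fit of all 12 libraries (-0.48, edgeR adjusted p = 0.0382). Each of these 3 was called in 1 of the 6 fits without 1 library: Snhg1 without wild-type brain 1 (-0.50, edgeR adjusted p = 0.0403), and Snhg6 (-0.64, edgeR adjusted p = 0.0358) and Snhg3 (-0.77, edgeR adjusted p = 0.0304) without wild-type liver 2. Exons of Snhg6 overlap those of Mcmdc2 on the opposite strand, whose counts ran from 24 to 66 per brain library and from 6 to 15 per liver library, and exons of Snhg3 overlap those of Rcc1 on the same strand, with 73 to 111 counts, so the counts of Snhg3 and Snhg6 are uncertain to that extent. Snhg5 (chr9:88521050-88522929), which holds the Snord50 pair, differed by 0.01 (-0.62 to 0.64). Snhg12 (chr4:132308623-132311024) differed by 0.13 (-0.23 to 0.49). These intervals leave room for differences of either direction, and with library totals Snhg1, Snhg3 and Snhg6 turned to 0.47, 0.35 and 0.37. With that scaling Snhg1 (edgeR adjusted p = 0.0456), Snhg5 (0.84, edgeR adjusted p = 0.0213) and Snhg12 (0.97, edgeR adjusted p = 0.000625) were called higher in brain. The ranges of Snhg1, Snhg6 and Snhg12 did not overlap between the tissues on effective library sizes.

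In the knockout libraries 4 hosts were called between the tissues, against 78.7% of all genes, and 5 had an unadjusted p under 0.05 (80% of all genes). Groups did not overlap for 3 higher in brain (45.9% of all genes) and 3 higher in liver (36.5%). Snhg11, Snhg14 and Snhg20 (0.57 ± 0.21, edgeR adjusted p = 0.0398) were again higher in brain, as were 43.5% of all genes, though Snhg20 lost the call in 5 of 6 fits without 1 library. Snhg3 was higher in liver (35.2% of all genes), at 2.86, 1.98 and 2.47 CPM in brain and 3.99, 4.50 and 6.66 in liver, with a difference of -1.06 ± 0.27 (edgeR adjusted p = 0.00841) that fell to -0.19 with library totals. Gas5 differed by -0.20 (95% interval -0.49 to 0.08) and Snhg8 by -0.69 ± 0.28 (edgeR adjusted p = 0.0517), and neither was called. Snhg8 was called in the fit of all 12 libraries (edgeR adjusted p = 0.0179) and with hosted RNAs added (edgeR adjusted p = 0.0453), while with library totals it turned to 0.19. Without knockout brain 2 Snhg8 was called (-1.0, edgeR adjusted p = 0.0109), and without knockout liver 3 Gas5 was (-0.32, edgeR adjusted p = 0.0339).

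**Figure D2:**
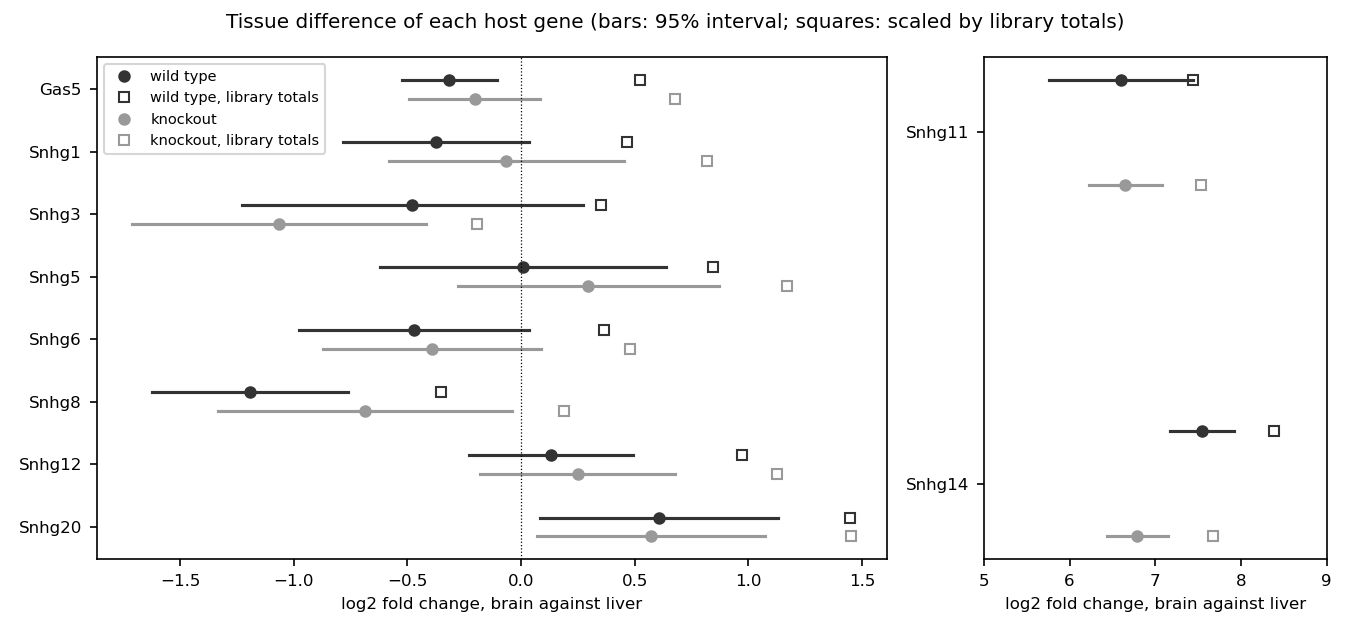
Log2 fold change of brain against liver (horizontal axis) for each host gene in wild-type and knockout libraries, with 95% intervals, and as open squares the same with library totals. Snhg11 and Snhg14 lie beyond 5 under every setting, while Gas5, Snhg1 and Snhg6 in both genotypes, Snhg3 in wild type and Snhg8 in knockout cross 0 when the scaling is changed.

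Whether loss of Vaultrc5 went with a change of the hosts was asked in each tissue. In brain no host was called, and none of the 18075 genes tested was (0%). By edgeR 122 genes had an unadjusted p under 0.05, which is 0.675%, and DESeq2 called 0 genes as well. Gas5 was at 29.8, 34.4 and 32.7 CPM in knockout brain, around the wild-type values, and differed by -0.00 on the log2 scale (95% interval -0.21 to 0.21). Snhg14 was at 533, 438 and 452 CPM in wild-type brain and at 472, 443 and 445 CPM in knockout brain, with a difference of -0.08 (-0.33 to 0.18). Snhg11 had 1240.3, 1549.9 and 1491 CPM in knockout brain and differed by 0.07 (-0.22 to 0.36).

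The other 7 hosts had differences between -0.29 (Snhg3, 95% interval -0.78 to 0.20) and -0.02 (Snhg1) in brain. In all 10 hosts the knockout and wild-type ranges overlapped, while 2.09% of all genes were higher and 2.14% lower without overlap. The estimate was below 0 for 9 of 10, with a median of -0.10, beside a median of -0.01 over all genes tested. Leaving out 1 library turned the sign of Gas5, Snhg1, Snhg5, Snhg8 or Snhg14, so the 9 signs do not stand for a stable direction. All 5 oligodendrocyte markers were estimated lower in knockout brain as well (median -0.57, none called), and their part in these values was not tested.

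In liver no host was called either, nor was any of the 15329 genes tested (0%), although 536 genes (3.5%) had an unadjusted p under 0.05 by edgeR and DESeq2 called 10 genes, none of them a host. A fit blocked on replicate number called 2 genes, again no host, and the unadjusted p was 0.0114 for Snhg14 and 0.0133 for Snhg8 (edgeR adjusted p = 0.740 for both). The largest differences among the hosts went opposite ways. Snhg14 was at 2.70, 2.59 and 2.35 CPM in wild-type liver and at 3.94, 4.61 and 3.64 CPM in knockout liver. The knockout libraries were all higher, by 0.68 ± 0.19 (95% interval 0.24 to 1.13; unadjusted p = 0.00793, edgeR adjusted p = 0.992). The value ran from 0.57 to 0.74 when 1 library was left out. These levels rest on 45 to 82 counts, and a level of 3 counts lies at 0.149 to 0.169 CPM in liver.

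Snhg8 was lower in every knockout liver library, at 4.94, 4.27 and 3.86 CPM beside 6.35, 6.22 and 6.64 CPM in wild type. The difference was -0.55 ± 0.16 (95% interval -0.91 to -0.18; unadjusted p = 0.00861, edgeR adjusted p = 0.992), and it ran from -0.63 to -0.48 when 1 library was left out. Snhg12 was at 6.01, 5.72 and 5.44 CPM in wild-type liver and at 4.83, 4.16 and 5.09 CPM in knockout liver, again without overlap. It differed by -0.28 ± 0.16 (edgeR adjusted p = 0.992). One host was thus higher in knockout without overlap, as were 4.16% of all genes, and 2 were lower, as were 5.45%.

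Gas5 in knockout liver was at 38.0, 40.9 and 31.6 CPM, with 2 libraries under the wild-type range and 1 above it, and differed by -0.11 (95% interval -0.35 to 0.13). Snhg1 differed by -0.33 (-0.73 to 0.07), Snhg5 by -0.42 (-1.02 to 0.18), Snhg6 by -0.20 (-0.70 to 0.30) and Snhg20 by -0.12 (-0.62 to 0.38). Between same-numbered libraries Snhg1, Snhg5 and Snhg6 were lower in knockout each time, while Gas5 and Snhg20 were not. With the replicate block the unadjusted edgeR p was 0.0753 for Snhg1, 0.0946 for Snhg5 and 0.313 for Snhg6. Snhg3 differed by 0.30 (-0.51 to 1.11), and by 0.023 without wild-type library 2, 0.036 without knockout library 3 and 0.63 without wild-type library 3. Snhg11 differed by 0.02 (-0.70 to 0.74), with liver levels that ran from 8.55 to 20.6 CPM in wild type. Estimates were below 0 for 7 of 10 hosts with a median of -0.16, beside 0.01 over all genes. That median of the hosts was -0.26 without wild-type library 2 and -0.13 without knockout library 3. With hosted RNAs added it was -0.33. A p that misses the threshold does not show that levels were alike.

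**Figure D3:**
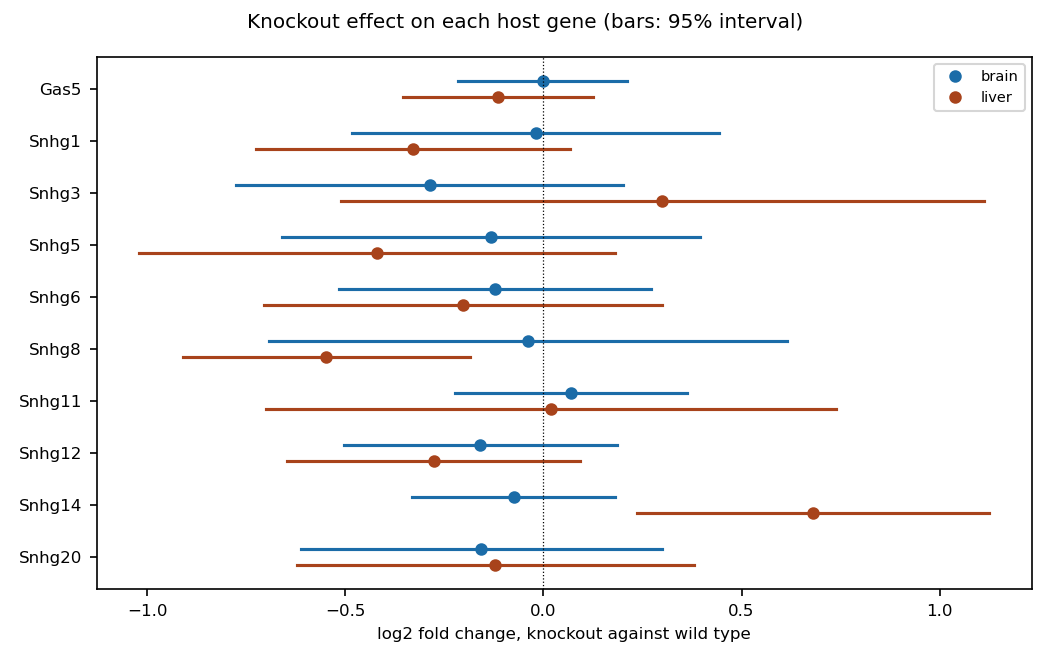
Log2 fold change of knockout against wild type (horizontal axis) for each host gene in brain and in liver, with 95% intervals over 3 libraries a group. The liver intervals of Snhg8 (below 0) and Snhg14 (above 0) leave out 0, and neither passed adjustment over all genes.

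Markers of other cell types had estimates on one side in liver. All 5 markers of Kupffer cells, the resident liver macrophages, were estimated higher in knockout liver (median log2 difference 0.68), their sum running from 128 to 175 CPM in the wild-type libraries and from 139 to 337 CPM in the knockout ones, and all 5 red blood cell markers were as well (median 0.95; 107 to 151 and 135 to 163 CPM). The 5 microglia markers (median 0.42; 56.6 to 75.1 and 63.0 to 118 CPM) and the 5 endothelial markers (median 0.15; 176 to 215 and 203 to 220.2 CPM) were all estimated higher too, though with library totals only 3 of the 5 endothelial markers were. None of these markers was called. The part of this in the values of Snhg8, Snhg12 and Snhg14 was not tested. The neuron markers summed to 30.1 to 35.9 CPM in wild-type liver and 28.4 to 36.8 CPM in knockout liver, with Tubb3 and Nefl at 0 in all wild-type and Snap25 at 0 in all knockout libraries. A single marker reached 637 counts in wild-type and 602 in knockout liver. Such a sum can rest mostly on 1 gene and does not measure nervous tissue in liver.

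The knockout effect on each host was compared between tissues by an interaction term, the effect in liver less that in brain. No gene of 20141 was called (0%), while 489 (2.43%) had an unadjusted p under 0.05 by edgeR, DESeq2 called 1 gene, and the fit with a replicate block called 2. Snhg14 had the smallest p of the hosts, with a difference of 0.74 ± 0.17 (95% interval 0.36 to 1.11; unadjusted p = 0.00116, edgeR adjusted p = 1.00). For Snhg8 it was -0.53 ± 0.32 (-1.23 to 0.17). The others lay between -0.33 (Snhg1) and 0.56 (Snhg3), each with an interval that held 0.

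The annotation places 240 small RNA genes of the snoRNA and scaRNA classes inside the hosts on their strand, of which 208 lie in Snhg14. Of the 32 in the other hosts, 6 reached 10 counts in any library. They were 126 to 205 bases long: Snord22 in Snhg1, Snora73a and Snora73b in Snhg3, Gm25129 in Snhg11, Snora44 in Snhg12 and the small Cajal body RNA Gm26083 in Snhg20. The other 26, of 60 to 137 bases with a median of 76, stayed under 10 counts, and 19 of them had 0 in every library, among them Snord47 and Snord78 in Gas5 and the Snord50 pair in Snhg5. Of these 32 genes 29 lie in annotated exons of their host. A count of 0 here is no measure of the mature snoRNA, since no library for small RNA was analysed here.

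The Snora73 pair, also known as U17 or E1, takes part in cleavage of the ribosomal RNA precursor. Snora73b had 192, 135 and 168 counts in wild-type brain, 157, 124 and 74 in knockout brain, 216, 268 and 219 in wild-type liver and 166, 134 and 115 in knockout liver. The liver groups did not overlap, at 12.3 ± 0.947 and 7.56 ± 1.14 CPM, with a difference of -0.70 ± 0.14 (unadjusted p = 0.00138, edgeR adjusted p = 0.992). Snora73a had 129, 135 and 138 counts in wild-type and 91.7, 59.9 and 95.4 in knockout liver, a difference of -0.64 ± 0.20 (unadjusted p = 0.0125, edgeR adjusted p = 0.992). In brain the differences were -0.37 ± 0.31 for Snora73b, with overlapping counts, and -0.53 ± 0.35 for Snora73a. Snora73a had 90.3, 77.6 and 75.5 counts in wild-type brain and 66.7, 61.8 and 26.9 in knockout brain, which did not overlap as counts but did as CPM (3.19 to 3.98 and 1.24 to 3.31). The pair is near-identical in sequence, so the split of reads between its members is uncertain.

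Counts of a host and of its small RNAs are not independent, since reads were divided between them in fractions. For Gas5, Snhg1, Snhg8 and Snhg12 the count of the host was not whole in some libraries, yet host and hosted genes together summed to a whole number in 12 of 12, within 0.025. For Snhg3 and Snhg20 the host was never whole and the sum was in 11 of 12. Snhg5 was whole with its hosted genes in only 1 library. Snhg3 by itself had 74.3, 49.1 and 111 counts in wild-type and 76.3, 80.1 and 119 in knockout liver.

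Summed with the Snora73 pair, Snhg3 had 419, 452 and 468 counts in wild-type liver and 334, 274 and 329 in knockout liver. The summed groups did not overlap in counts, and the knockout difference turned from 0.30 for Snhg3 by itself to -0.45 (unadjusted p = 0.00255, edgeR adjusted p = 0.992). In brain the sums were 346, 285 and 316 in wild type and 282, 231 and 155 in knockout, from libraries of unequal depth, with a difference of -0.39 (unadjusted p = 0.160). Between the tissues, summing moved Snhg3 from -0.48 to -0.80 in wild type, now called (edgeR adjusted p = 0.00083), and moved Snhg20 from 0.61 to 0.19, no longer called. The Snhg20 call between knockout tissues was lost as well (0.31, edgeR adjusted p = 0.216). For Snhg1 in liver the sum gave -0.41 in place of -0.33 (unadjusted p = 0.0276, edgeR adjusted p = 0.992). This way of counting was chosen after the data had been seen.

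**Figure D4:**
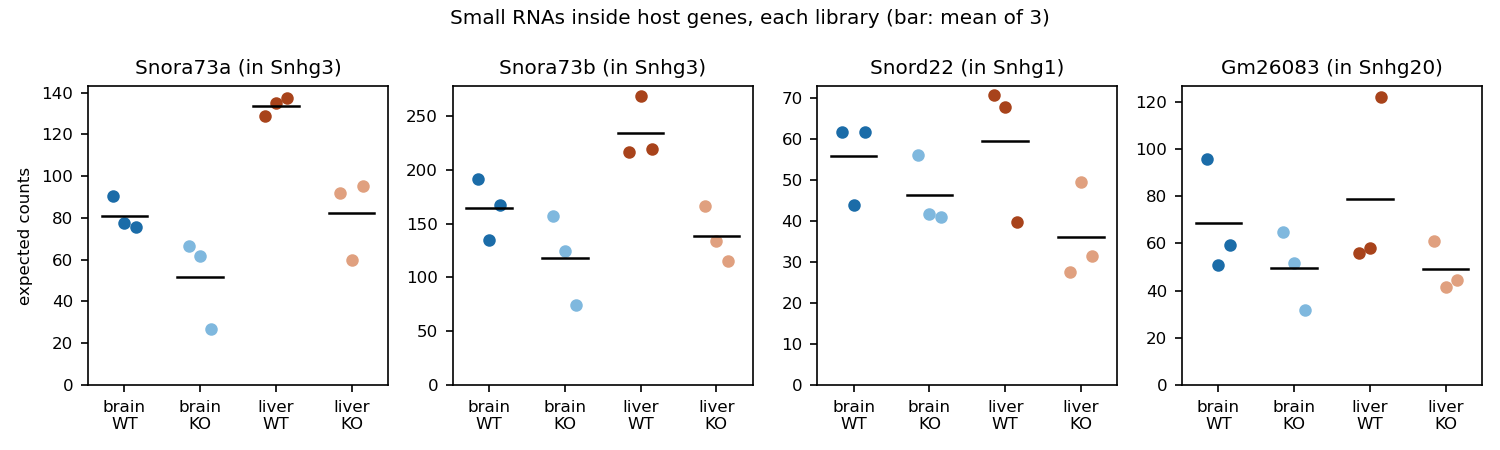
Expected counts (vertical axis) of 4 small RNA genes inside hosts in each library, with a bar at the mean of 3 libraries. The knockout liver libraries lie under the wild-type ones for both Snora73 genes, while the groups overlap for Gm26083.

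In Snhg14 no hosted snoRNA reached 10 counts, with 5 as the highest of any library. The 208 genes hold 85 distinct sequences of 69 to 94 bases, 189 of them genes with both TGATGA and CTGA, and 56 genes had any count. Their counts summed to 3.98 to 32.98 per brain library and to 0 in every liver library. Reads from identical copies, such as the 30 of Snord116l4 and the 33 of Gm26434, cannot be placed on one of them, so these sums describe the deposited assignment and not the Snord115 and Snord116 levels.

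The genes around Snhg14 on chromosome 7 showed which of them shared its tissue pattern. Of 12 genes listed for the Prader-Willi and Angelman region 11 were in the table, and 10 of these 11 were called higher in brain in wild type and 10 in knockout, with medians of 5.23 and 4.99, beside 43.9% and 43.5% of all genes. Snrpn, which codes for a spliceosome protein and from whose locus Snhg14 extends, was at 9.68 ± 0.841 CPM in wild-type liver and 363 ± 38.5 CPM in wild-type brain, a difference of 5.23 ± 0.15 (edgeR adjusted p = 8.45e-08). Snurf, read from the same transcript, differed by 4.82 ± 0.17 (edgeR adjusted p = 2.1e-07). In knockout animals Ndn, coding for necdin, differed by 5.70 ± 0.14 (edgeR adjusted p = 1.15e-07).

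Ube3a, the ubiquitin ligase gene whose exons overlap those of Snhg14 on the opposite strand, was the exception, named for that overlap. It stood at 171 ± 2.77 CPM in wild-type brain and 178 ± 4.23 CPM in wild-type liver, a difference of -0.05 (95% interval -0.26 to 0.16) with effective library sizes, and with library totals it too was among the 11 of 11 called higher in brain. For knockout against wild type in liver Ube3a differed by -0.05 (-0.26 to 0.16). Of the 7 region genes tested in liver, 0 were called, and Snrpn had the smallest p, with a difference of 0.19 ± 0.13. Exons of Snhg14 also overlap those of Gm38393 on its own strand. Snhg14 counts were whole in every library within 0.025, so they show no reads split in fractions with Gm38393. Whether counting used strand is not given in the sources used here, so reads where Snhg14 and Ube3a overlap could have been assigned either way.

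**Figure D5:**
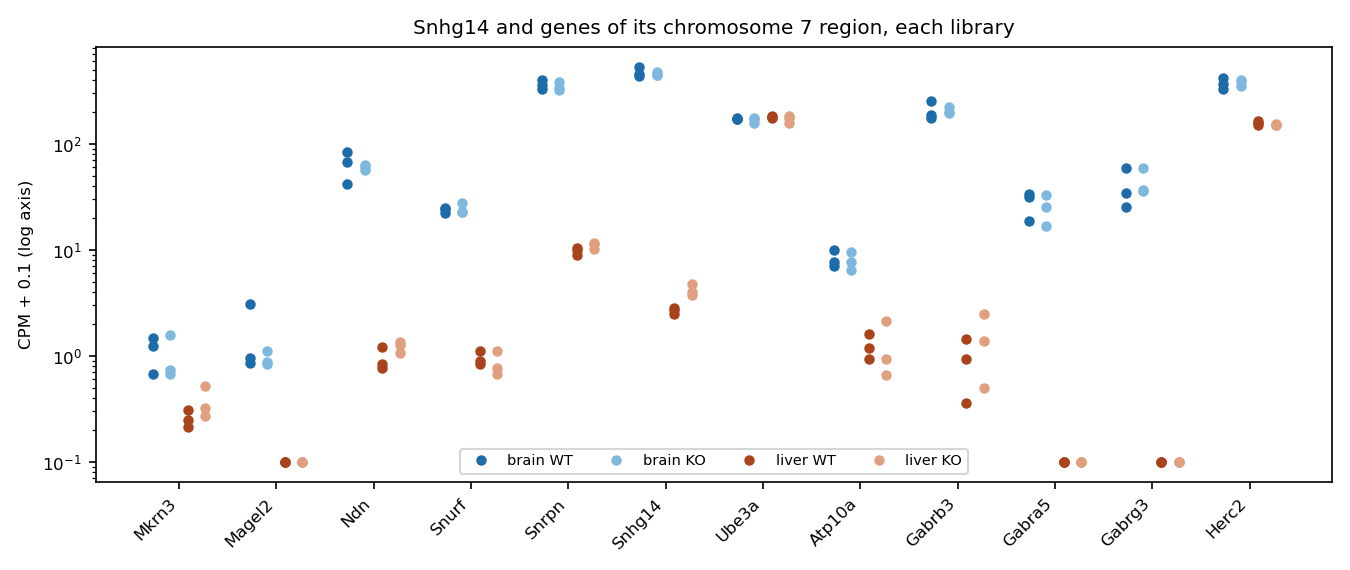
CPM plus 0.1 (vertical axis, logarithmic) of Snhg14 and listed genes of its region in each library of the 4 groups. Snhg14, Snrpn, Snurf and Ndn lie far lower in liver, and Ube3a lies at the same height in both tissues.

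Other hosts and the machinery that works on their products were set beside the members. Protein-coding snoRNA hosts, mostly ribosomal protein and translation factor genes, numbered 36, all tested. Between wild-type tissues 30 of them were called higher in liver, beside 34.7% of all genes, and 2 higher in brain, beside 43.9%. The list's median was -1.04 and that of all genes 0.21. With library totals 15 were called higher in liver and 10 higher in brain, beside 3997 and 11635 of 18850 genes, and the medians were -0.20 and 1.05. Rnf149 (-2.71 ± 0.12, edgeR adjusted p = 5.66e-07), a ubiquitin ligase gene, and Hspa9 (-2.24 ± 0.11, edgeR adjusted p = 7.65e-07), the mitochondrial chaperone gene, were higher in liver under both scalings. Nop56, which is both a host and a core box C/D protein, was higher in brain under both (1.00 ± 0.09, edgeR adjusted p = 3.22e-05).

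Against genotype none of the 36 was called. Estimates were below 0 for 30 in brain (median -0.05) and 28 in liver (median -0.08). Over all genes 9353 of 18075 were below 0 in brain and 7471 of 15329 in liver, with medians of -0.01 and 0.01. The signs were not tested as a set. Eif4a1, a translation initiation helicase gene, had the smallest p in liver, which stood at 206 ± 2.04 CPM in wild-type libraries and 178 ± 3.37 CPM in knockout libraries (-0.21 ± 0.08, unadjusted p = 0.0299, edgeR adjusted p = 0.992). Of 11 further non-coding hosts and Snhg genes listed, 8 were in the table. Between wild-type tissues 1 of 7 tested was higher in brain, Snhg10 (1.54 ± 0.35, edgeR adjusted p = 0.00442), and 3 were higher in liver, with 1110038B12Rik at -1.60 ± 0.18 (edgeR adjusted p = 9.86e-05) and Snhg17 at -0.99 ± 0.19 (edgeR adjusted p = 0.00184), the latter not called with library totals. With that scaling 1 gene was called in each direction and the list's median turned from -0.50 to 0.33, while that of all genes moved from 0.21 to 1.05. On effective library sizes all genes were called higher in brain in 43.9% and higher in liver in 34.7%. In knockout liver none of 6 was called and all 6 estimates were below 0 (median -0.24), or 5 of 6 with the replicate block.

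Of 19 genes for snoRNA-binding proteins and their assembly factors, 8 were called higher in wild-type brain and 5 higher in wild-type liver, beside the 43.9% and 34.7% of all genes. With library totals they were 15 and 3 (median 1.11 in place of 0.27), and with the replicate block 6 and 4. Fbl, the methyltransferase of box C/D particles, was at 9.32 ± 0.665 CPM in brain and 22.3 ± 0.347 CPM in liver (-1.25 ± 0.12, edgeR adjusted p = 2.88e-05), and Nop58, its partner, was at 33.1 ± 2.27 and 17.9 ± 1.91 CPM (0.89 ± 0.12, edgeR adjusted p = 0.000268). Both directions held with library totals. Of 21 nonsense-mediated decay and release factors, 7 were called higher in brain and 9 higher in liver, beside the same shares of all genes. With library totals they were 12 and 2, where all genes moved to 11635 and 3997, and with the replicate block 7 and 8. Against genotype none of the genes in either list was called by edgeR in either tissue. Of the 19 snoRNA protein and assembly genes 9 had estimates above 0 in brain and 5 in liver. Of the 21 decay and release factors 15 did in brain and 8 in liver. Znhit3, a box C/D assembly factor gene, had the smallest p in liver (2.68 ± 0.498 and 1.51 ± 0.165 CPM; -0.81 ± 0.24, unadjusted p = 0.0107, edgeR adjusted p = 0.992).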

How the data were processed

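TRIzol-extracted RNA was, per the labels' protocols, treated with DNase, depleted of ribosomal RNA and made into stranded ligation libraries read from one end. Per the submitters' processing notes, cutadapt, STAR and the mm10 build were used; which tool counted reads, and whether by strand, is not given in the sources used here. The values deposited by the authors are expected counts of each gene, without normalization; 5.06% to 5.71% of values per library were not whole, and all 55450 gene identifiers matched GENCODE M21.

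Counts were rounded and fitted in R 4.3.3 with edgeR 4.0.16 (TMM, robust quasi-likelihood F-test, filterByExpr with a minimum count of 10 and a total of 15), with Benjamini-Hochberg adjustment over all genes and a threshold of 0.05. Brain and liver comparisons used their own 6 libraries and the interaction all 12. Log2 differences are knockout against wild type or brain against liver, ± SE. CPM use TMM effective library sizes over all 12 libraries; levels are mean ± SD. The fits were also run on simulated data with less spread than these data and larger changes than the hosts showed between genotypes. That run does not measure power here. Intervals cover 95%.

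Genes named are the members, hosted small RNAs with at least 10 counts, and from each list the called genes with separate groups and the smallest p, up to 2 a direction, or the 1 with the smallest p; not every such gene is described. Members and lists were chosen with earlier results of these data known. Alternatives were DESeq2 1.42.0, its size factors, library totals, other filters, robust estimation off, a threshold of 0.1, 1 fit of all libraries, a replicate block, leaving out each library, and hosted RNAs added to hosts.

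Replicate numbers come from the titles. Deviations from the group means correlated over 13935 genes between same-numbered wild-type and knockout liver libraries at 0.29, 0.26 and 0.33, so these numbers pair the libraries. Values are from the fit without the block unless a blocked value is named. No 2 libraries of a group agreed within sampling noise.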

Additional observations from a re-analysis of the deposited data

How the results depend on the processing

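Of the members' log2 differences refitted under the alternatives, 148 of 160 kept direction and call in brain, 154 of 160 in liver, 199 of 210 for the interaction, and 136 and 140 of 160 between wild-type and knockout tissues. With library totals, 7 members were called between knockout tissues, beside 15539 of 18785 genes, and 7 between wild-type tissues, beside 15632 of 18850; in wild type Gas5, Snhg1, Snhg3 and Snhg6 turned to 0.52, 0.47, 0.35 and 0.37, and in knockout Gas5, Snhg1, Snhg6 and Snhg8 turned to 0.68, 0.82, 0.48 and 0.19. That scaling also turned Snhg11 in liver (-0.022) and the Snhg20 interaction (-0.0076). A fit of all 12 libraries turned Gas5 in brain to 0.0098. With hosted RNAs added, Snhg3 turned to -0.45 in liver and -0.081 for the interaction, and the Snhg20 interaction to -0.14. Genes called in liver numbered 10 with DESeq2, 4 without the filter, 2 with the replicate block and 0 to 1 without 1 library; for the interaction they numbered 1 with DESeq2 and 2 with the block. The cause was not tested. Leaving out 1 library turned the sign of Gas5 (-0.039 to 0.056), Snhg1 (-0.20 to 0.10), Snhg5 (-0.25 to 0.020), Snhg8 (-0.32 to 0.14) and Snhg14 (-0.13 to 0.011) in brain, of Snhg11 (-0.24 to 0.41) and Snhg20 (-0.27 to 0.0094) in liver and, for the interaction, of Snhg11 (-0.32 to 0.32) and Snhg20 (-0.14 to 0.16). Between tissues it turned Snhg5 in wild type (-0.18 to 0.18) and Snhg1 in knockout (-0.23 to 0.046).

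The replicate block turned the Snhg11 interaction to 0.011 and took the Snhg20 call between wild-type tissues (adjusted p = 0.0657); it changed no other member's call. In brain, same-numbered libraries correlated at 0.60, 0.62 and 0.01, so numbers 1 and 2 went together across genotypes and number 3 did not. The block lowered the common dispersion in brain from 0.0587 to 0.0184. With it 406 of 18075 genes had an unadjusted p under 0.05 by edgeR, and 0 were called. Snhg3 then had the smallest p of the hosts in brain (-0.30, edgeR unadjusted p = 0.182). Undivided by exon length, Snhg11 ranked second and not ninth in wild-type liver. Snhg14 in liver rests on 45 to 82 counts a library.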
